A study of Mus musculus with 6 samples.

Results

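The mRNA of 10 genes that coat, empty or drain the lipid droplet was followed in cultured stromal cells of mouse visceral fat. They were chosen by symbol from the 55011 genes of the deposited count table, and all 10 were found there. The group holds the droplet coat genes Plin1, Plin2, Plin3, Plin4, Plin5 and Cidec, the lipase genes Pnpla2, Lipe and Mgll, and the glycerol channel gene Aqp7. Of these, 9 had enough reads to be tested, Cidec in the PBS libraries alone, and Plin5 did not. With irisin, 8 members were lower, where 3.22% of all genes tested were, and 0 were higher, where 4.20% were. Plin3 did not pass.

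Fat is stored as triglyceride in droplets covered by a phospholipid layer and by coat proteins, most of them perilipins. In adipocytes, perilipin 1 holds the lipase activator ABHD5 and releases it when adrenergic signals arrive. ATGL (gene Pnpla2), hormone-sensitive lipase (Lipe) and monoglyceride lipase (Mgll) then remove the fatty acids in turn, and the glycerol that is left crosses the membrane through aquaglyceroporins such as AQP7. Many of these genes are known targets of PPARγ, the transcription factor that drives adipocyte formation.

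The cells were stromal cells from visceral fat that lacked the EGFP signal of an Il33 reporter (labelled genotype Il33-EGFP-). In all 6 libraries the cells share this origin and a culture of 3 days. Of these, 3 received PBS and 3 received irisin/HSP90α at 10 nM, shortened to irisin in what follows. Nothing in the labels tells if PBS wells contained HSP90α. The design asks whether the treatment turns adipocyte precursors towards immunomodulatory stromal cells. Whether replicates came from different animals or cultures is not stated, and p-values therefore reflect only the scatter among these 6 libraries, which could be technical.

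Each library held 5271309 to 6745799 counts, so 1 CPM (counts scaled to library size) stood on 5.17 to 6.89 counts. Markers of adipose stromal cells, the labelled type, summed to 37966 to 45520 CPM in PBS and 51513 to 56332 CPM in irisin, sums made up largely of collagen genes. Of the 12 markers tested, Pdgfra (1.52-fold) and Col1a1 (1.40-fold) rose, while Cd34 (2.65-fold), Thy1 (2.46-fold) and Lum (1.69-fold) fell. Macrophage markers summed to 83.7 to 96.1 CPM in PBS and 75.6 to 97.4 CPM in irisin, most of it Csf1r. Of 5 tested, 1 fell, Mertk (2.68-fold). Those not tested, Ptprc, Adgre1, Mrc1, Itgam, Fcgr1, C1qa and C1qb, had group means of at most 0.524 CPM. Endothelial markers summed to 35.9 to 43.3 CPM in PBS and 22.4 to 30.1 CPM in irisin. Most of that was Tek (1.51-fold lower), the 1 that fell of 2 tested. Mesothelial markers summed to 37.6 to 43.9 CPM in PBS and 44.3 to 54.4 CPM in irisin, most of it Wt1, and 0 of 2 tested passed. Irisin and PBS libraries lay at opposite ends of principal component 1, with 48.5% of the variance. On component 2, with 24.5%, PBS replicate 3 and irisin replicate 1 lay on one side and the remaining 4 on the other, and the members are given with and without this pair.

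All 10 genes are protein-coding and lie on 4 chromosomes of the mouse assembly GRCm38 (mm10), as annotated in GENCODE M21. Plin4 (chromosome 17, 56100591 to 56109803) and Plin5 (56111601 to 56117596) are next to each other on the minus strand with a gap of 1797 bases, and Plin3 (56277476 to 56292873) follows 159879 bases further on, with 7 coding genes between. These neighbours behaved differently: Plin4 fell, Plin3 did not pass, and Plin5 was close to 0. Plin2 (86648386 to 86670060) and Aqp7 (41033074 to 41048139) lie on chromosome 4. Cidec (113424634 to 113435760) and Mgll (88724412 to 88828360) are on chromosome 6. Plin1 (79720218 to 79732903), Lipe (25379527 to 25398710) and Pnpla2 (141455198 to 141460743) are on chromosome 7. One count was given per gene, with no split by exon or isoform. Exons on the opposite strand overlap Lipe by 918 bases, Mgll by 167 and Plin4 by 17. Whether counting used strand is not stated, so reads of those partners cannot be told apart from these genes. Reads shared by overlapping genes may also have gone uncounted: Gnas, a gene most cells use, whose exons overlap those of other genes, had 4 to 17 counts per library. The levels of genes with such overlaps are uncertain in either direction.

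Start regions are shown for 4 members that span the range of responses, since PPARγ binds with RXR at a direct repeat called DR1. RefSeq gave 15 start regions for the 10 members (GRCm38.p6). The 250 bases before each start were searched on both strands for AGGTCANAGGTCA with at most 2 mismatches in its 12 fixed letters. Matches are in capitals below. Aqp7 is at chr4:41048137-41048386, Cidec at chr6:113434765-113435014, Plin2 at chr4:86670060-86670309 and Plin3 at chr17:56290512-56290761, all on the minus strand and written 5′ to 3′ towards the gene.
Aqp7: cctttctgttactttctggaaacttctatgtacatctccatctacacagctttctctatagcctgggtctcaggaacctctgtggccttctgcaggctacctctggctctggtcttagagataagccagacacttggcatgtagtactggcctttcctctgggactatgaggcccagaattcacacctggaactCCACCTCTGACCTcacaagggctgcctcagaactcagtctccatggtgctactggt
Cidec: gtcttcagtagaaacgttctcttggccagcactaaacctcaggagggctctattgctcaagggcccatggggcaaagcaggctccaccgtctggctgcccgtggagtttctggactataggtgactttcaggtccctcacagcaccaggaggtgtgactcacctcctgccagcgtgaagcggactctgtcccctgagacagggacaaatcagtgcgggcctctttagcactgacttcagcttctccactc
Plin2: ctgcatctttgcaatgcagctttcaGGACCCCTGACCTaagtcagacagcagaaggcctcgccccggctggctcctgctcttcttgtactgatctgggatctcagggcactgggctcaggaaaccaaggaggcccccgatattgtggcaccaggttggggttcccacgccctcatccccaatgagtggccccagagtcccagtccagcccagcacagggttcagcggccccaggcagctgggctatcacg
Plin3: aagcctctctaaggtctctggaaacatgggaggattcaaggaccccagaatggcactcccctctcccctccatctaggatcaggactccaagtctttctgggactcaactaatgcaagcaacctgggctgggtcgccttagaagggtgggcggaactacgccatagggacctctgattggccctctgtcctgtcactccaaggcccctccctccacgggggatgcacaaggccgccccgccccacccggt

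Such a match stood in 3 of the 15 member regions, belonging to Aqp7 and Plin2, against 3.24% of 32851 start regions in the table. In the Aqp7 region printed it covers bases 56 to 44 before the start, and the region of a second Aqp7 start holds the same site and another at bases 101 to 89. In Plin2 it covers bases 225 to 213. No DR1 match was found in these windows of Cidec, Plin3 or the other 6 members, so that members with large and small changes occur both with and without one. The same windows were searched for TTGCGCAA, a site of C/EBP transcription factors, with at most 1 mismatch. Matches stood in 2 of the 15 member regions, against 5.08% of all. They cover bases 198 to 191 in the Cidec region printed, where they are not in capitals, and 58 to 51 in Plin1. A match describes letters only, and binding was not measured. Pparg itself fell from 153 ± 16.0 to 84.5 ± 7.50 CPM (n = 3 each, log2 fold change -0.86 ± 0.11, adjusted p = 0.000156 by edgeR's quasi-likelihood test).

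Irisin against PBS was tested over 12296 genes with edgeR's quasi-likelihood test and Benjamini-Hochberg adjustment, and a gene was called at an adjusted p under 0.05. Of the 9 members tested, 8 were called lower and 0 higher, against 396 and 516 of all genes tested. Cidec, one of the 8, was tested only because its PBS counts were higher. A count minimum of 50, which left Cidec out, gave 7 lower and 0 higher of 8 members tested. Over all 9406 genes tested there, 338 were lower and 468 higher. Scaling by total counts alone turned the balance over all genes to 602 lower and 422 higher, with the members still at 8 and 0. Genes called lower numbered 250 without PBS replicate 1, 238 without irisin replicate 2 and 260 without irisin replicate 3, with 7 members among them each time. No member was higher at an unadjusted p under 0.05, nor with DESeq2 or limma-voom. In the same 8 members every irisin value lay below every PBS value, as in 11.5% of all genes tested. The median log2 fold change was -1.71 over the 9 members and -0.01 over all genes tested. In bulk RNA, fewer cells that make a transcript and less of it per cell cannot be told apart.

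**Figure D1:**
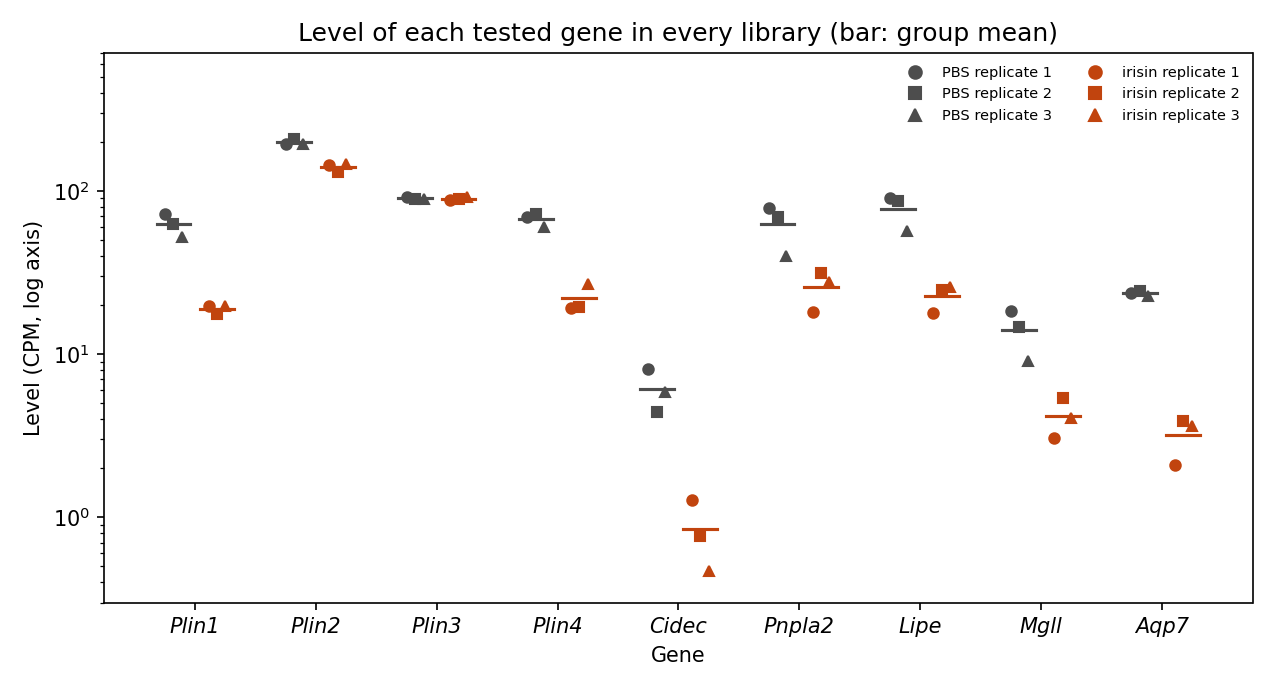
Level of the 9 tested genes in each library (CPM on a log axis), with PBS in grey, irisin in orange, 1 marker shape per replicate number and bars at the group means (n = 3). Irisin values lie below all PBS values for every gene shown except Plin3, whose 6 values run from 88.5 to 92.2 CPM.

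Plin1 encodes the perilipin that gates lipolysis in adipocytes. Its level was 72.4, 62.3 and 52.5 CPM in PBS replicates 1, 2 and 3, and 19.7, 17.6 and 19.8 CPM in the irisin replicates. The irisin libraries lay close together and far below the lowest PBS library. Plin1 thus fell 3.28-fold (log2 fold change -1.71 ± 0.14 SE, adjusted p = 4.81e-06).

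Plin4, a perilipin of adipocytes that covers small, newly formed droplets, fell by a fold similar to that of Plin1. It stood at 69.1, 72.6 and 60.0 CPM in PBS and at 19.2, 19.5 and 27.0 CPM in irisin. Irisin replicate 3 was the highest of its group and still well below every PBS library. The fall was 3.06-fold (log2 fold change -1.61 ± 0.15, adjusted p = 1.17e-05). Within libraries the ratio of Plin4 to Plin1 counts was 1.09 ± 0.116 in PBS and 1.15 ± 0.198 in irisin (SD, n = 3), and these ranges overlapped.

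Cidec encodes FSP27, which passes lipid from small droplets to large ones. It had few reads, 56, 28 and 32 in the PBS libraries and 8, 4 and 3 in the irisin libraries. In CPM these are 8.13, 4.44 and 5.89 against 1.28, 0.773 and 0.471, groups that stayed apart in spite of a 2.72-fold range among the irisin libraries. Cidec fell 7.18-fold (log2 fold change -2.84 ± 0.41, adjusted p = 0.000622). Among all genes tested only 7 had a lower log2 fold change. Every irisin count was under the count minimum of 10, so Cidec was tested only because its PBS counts were higher. Its call and rank rest on that.

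Plin2 is the perilipin that most cell types make, and it is the most abundant member here. It stood at 193, 207 and 194 CPM in PBS and at 143, 131 and 146 CPM in irisin. Libraries of a group differed by at most 1.12-fold, and the groups did not overlap. Plin2 fell 1.41-fold (log2 fold change -0.50 ± 0.09, adjusted p = 0.00224), a smaller step than that of Plin1. The ratio of Plin2 to Plin1 was 2.67 to 3.71 in PBS and 7.28 to 7.45 in irisin.

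Plin3, the other widely made perilipin, which moves between cytosol and droplets, had 92.2, 88.7 and 88.9 CPM in PBS and 88.5, 88.9 and 91.1 CPM in irisin. The values of the 2 groups overlapped. The log2 fold change was -0.01 ± 0.09 (adjusted p = 0.981), with a 95% interval from -0.20 to 0.18, or 0.871-fold to 1.14-fold. That interval holds no fall as large as those of the 8 called members, though a smaller change cannot be told from none.

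Plin5, the perilipin of heart, muscle and other tissues that burn fat, was close to absent. It had 4 counts in PBS replicate 1, 1 in irisin replicate 3 and 0 in the other 4 libraries, where a count of 0 allows up to 0.475 to 0.580 CPM. No fold change is given.

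**Figure D2:**
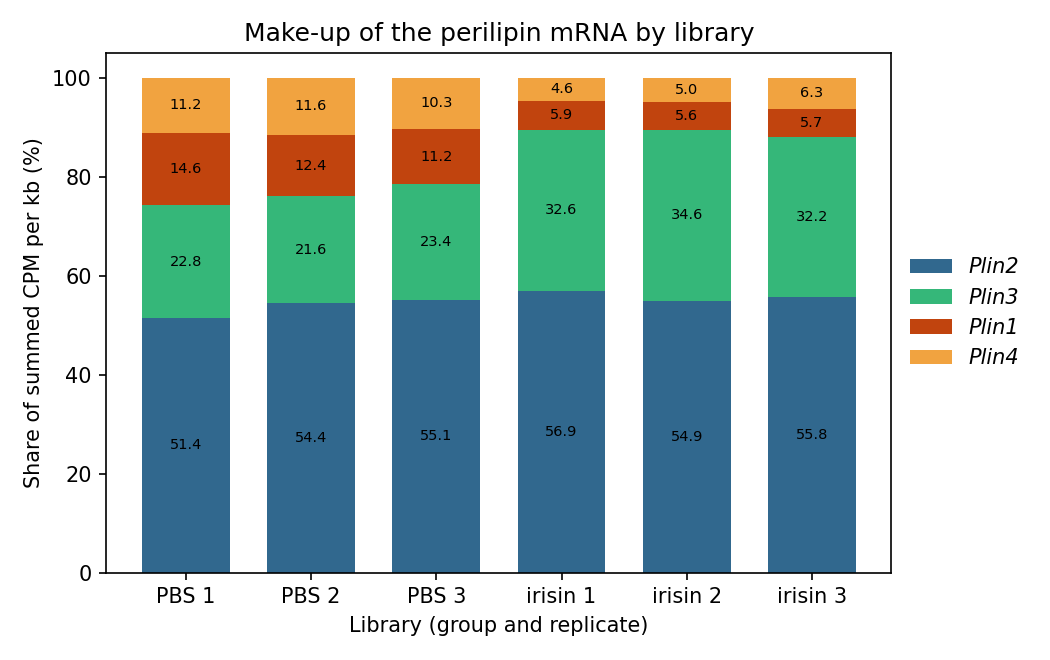
Share of Plin1, Plin2, Plin3 and Plin4 in their summed CPM per kb of exon, in percent, for each library (stacked bars that add to 100). Plin1 and Plin4 take smaller shares and Plin3 a larger one in all 3 irisin libraries, while Plin2 stays between 51.4% and 56.9%.

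These unequal changes altered the make-up of perilipin mRNA. Scaled to exon length, Plin2 was 53.7% ± 1.94 of the summed Plin1 to Plin4 level in PBS and 55.9% ± 0.997 in irisin (SD, n = 3). Plin3 went from 22.6% ± 0.889 to 33.1% ± 1.25, while Plin1 went from 12.7% ± 1.71 to 5.72% ± 0.167 and Plin4 from 11.0% ± 0.640 to 5.29% ± 0.862. The plot of shares by library shows no overlap between groups for Plin1, Plin3 or Plin4, and an overlap for Plin2. Of 11 ratios between members, 6 did not overlap between groups. They were Plin2 to Plin1, Plin3 to Plin1, Plin2 to Plin3, Aqp7 to Plin1, Pnpla2 to Lipe, and Cidec to Plin1 (0.0986 ± 0.0237 in PBS and 0.0443 ± 0.0206 in irisin). Each gave p = 0.1 in an exact two-sided permutation test, the smallest that 3 against 3 allows (0.183 adjusted over the 11 ratios).

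The 3 lipases that take triglyceride apart were all lower with irisin, and they varied more between libraries of a group than the perilipins Plin2 and Plin3. Pnpla2, the lipase of the first step, stood at 79.0, 69.6 and 40.0 CPM in PBS and at 18.1, 31.5 and 27.7 CPM in irisin. PBS replicate 3 and irisin replicate 1 were the lowest of their groups, and the groups came close to each other without overlap. The fall was 2.46-fold (log2 fold change -1.30 ± 0.30, adjusted p = 0.0477).

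The call of Pnpla2 is the least secure among the members. Leaving out any single library other than PBS replicate 3 ended it (adjusted p from 0.0663 to 0.159), as did the replicate number as a block (0.101). Without PBS replicate 3 the adjusted p was 0.000171, and without both PBS replicate 3 and irisin replicate 1, a choice made after seeing the data, it was 7.21e-11. With all 6 libraries and no block, the adjusted p depended on the test. It was 0.0477 in the main fit, 0.00883 without robust dispersion, 0.000869 with limma-voom and 8.32e-06 with DESeq2. The log2 fold change stayed between -1.53 and -1.10 in the fits that leave out 1 library.

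Lipe encodes hormone-sensitive lipase, which takes the second fatty acid. It stood at 90.1, 86.7 and 56.9 CPM in PBS and at 17.8, 24.7 and 25.8 CPM in irisin, so that the lowest PBS library was more than 2-fold above the highest irisin library. Lipe fell 3.44-fold (log2 fold change -1.78 ± 0.20, adjusted p = 0.000154).

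Mgll frees the last fatty acid and also breaks down the endocannabinoid 2-arachidonoylglycerol. Its level was 18.3, 14.7 and 9.02 CPM in PBS and 3.04, 5.41 and 4.09 CPM in irisin. The groups did not overlap, although PBS libraries spanned a 2.03-fold range. Mgll fell 3.41-fold (log2 fold change -1.77 ± 0.29, adjusted p = 0.00178).

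**Figure D3:**
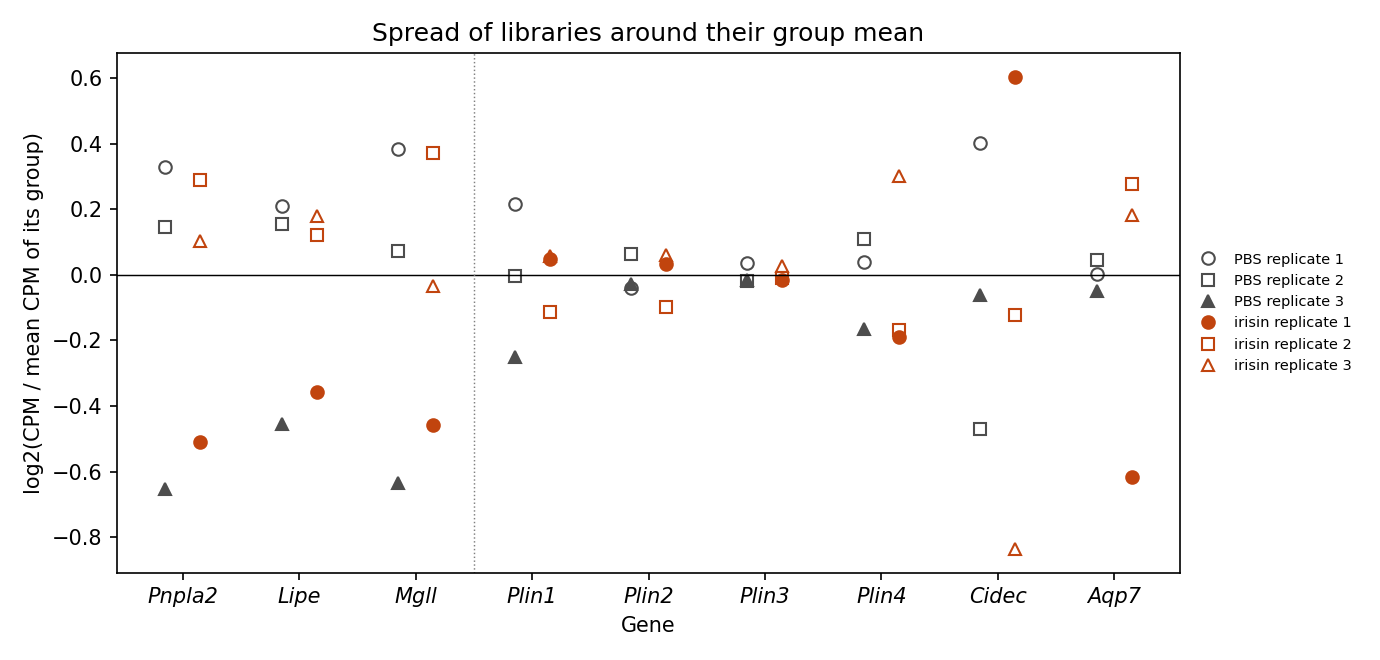
Deviation of each library from its own group mean, as log2 of the ratio of CPM values, for the lipases (left of the dotted line) and the other tested members. Filled markers are PBS replicate 3 and irisin replicate 1, which lie 0.36 to 0.65 below their group means for all 3 lipases and within 0.04 of them for Plin2 and Plin3. For Plin4 they lie 0.16 and 0.19 below.

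The same pair of libraries was low for each lipase. PBS replicate 3 lay 0.65, 0.45 and 0.64 below its group mean on the log2 scale for Pnpla2, Lipe and Mgll, and irisin replicate 1 lay 0.51, 0.36 and 0.46 below. Plin4 was also lowest of its group in both, 0.16 and 0.19 below, and so was Aqp7, 0.05 and 0.62 below. Plin1 was low only in PBS replicate 3 (0.25 below), and Cidec lay 0.61 above its group mean in irisin replicate 1. Outside the members, Adrb3 was lowest in the same pair, so this was not particular to the lipases. Across the 6 libraries Pearson's r of log2 levels was 0.99 between Pnpla2 and Mgll and 0.97 between Pnpla2 and Lipe, as a description of points that share the group difference. These are the libraries that the second principal component sets apart, and a part of that component in the lipase levels was not tested. Without both, the log2 fold changes were -1.33 for Pnpla2, -1.80 for Lipe and -1.81 for Mgll, close to those with all 6 libraries. They were -1.84 for Plin1, -0.52 for Plin2, -1.59 for Plin4, -3.33 for Cidec and -2.68 for Aqp7, all called, and -0.0038 for Plin3, which did not pass.

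Of the ratios between lipases, 1 stayed within overlapping ranges and 1 did not. The ratio of Mgll to Lipe counts was 0.177 ± 0.0230 in PBS and 0.183 ± 0.0318 in irisin, which overlapped. Pnpla2 to Lipe went from 0.794 ± 0.0872 to 1.12 ± 0.134 without overlap (exact two-sided permutation p = 0.1, 0.183 adjusted over the 11 ratios). The ratio of Lipe to Plin1 was 1.24 ± 0.154 and 1.20 ± 0.266.

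Aqp7, the channel through which adipocytes release glycerol, had a fold change close to that of Cidec, the 2 largest of the members. Their order changed with the libraries and the test used. It stood at 23.7, 24.4 and 22.8 CPM in PBS, a range of 1.07-fold, and at 2.08, 3.87 and 3.61 CPM in irisin. The lowest PBS level was thus several times the highest irisin level. Aqp7 fell 7.44-fold (log2 fold change -2.90 ± 0.22, adjusted p = 2.02e-06), with only 4 of the tested genes lower in log2 fold change. Relative to Plin1, Aqp7 counts went from 0.385 ± 0.0546 to 0.169 ± 0.0582 without overlap (exact two-sided permutation p = 0.1, 0.183 adjusted).

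**Figure D4:**
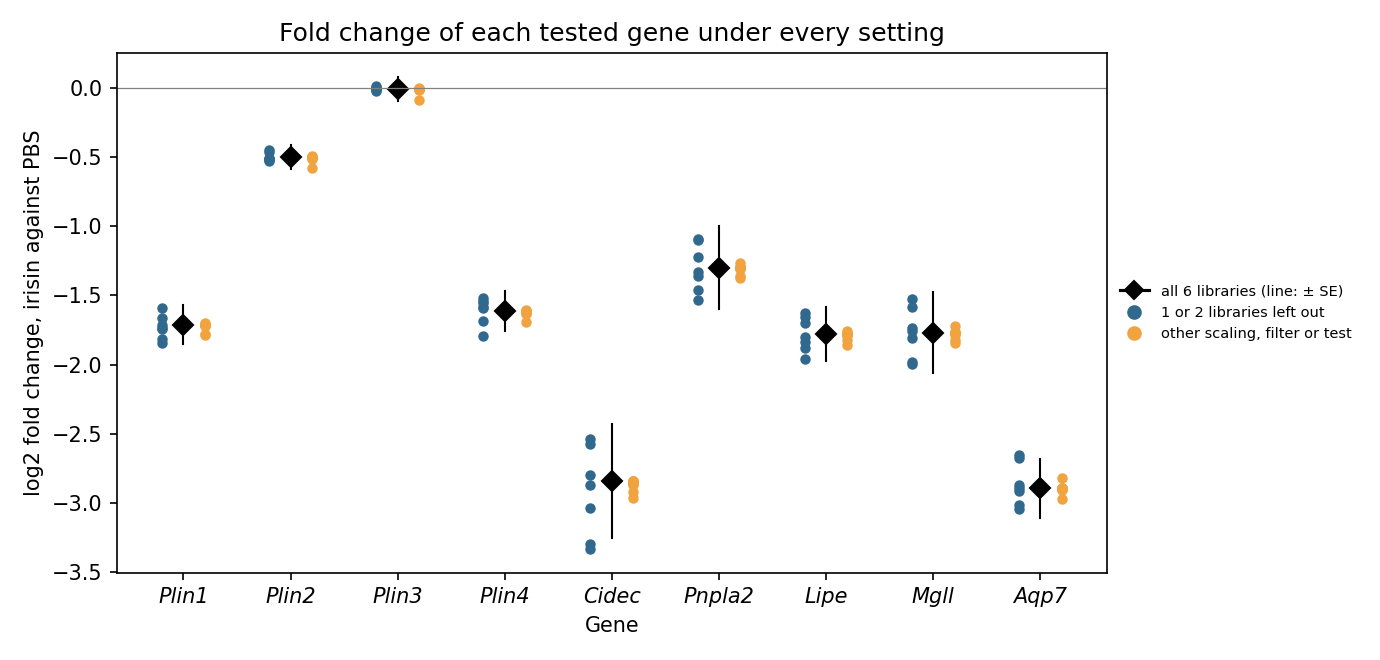
Log2 fold change of each tested gene with all 6 libraries (black, with its standard error), with 1 or 2 libraries left out (blue) and with other scalings, filters or tests (orange). Values stay below 0 for every gene except Plin3, whose values run from -0.09 to 0.01.

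Per length of exon, the order of the members was much alike in both groups. In PBS the mean level, in CPM per kb, was 56.4 for Plin2, 23.8 for Plin3, 20.8 for Pnpla2, 13.4 for Plin1, 13.2 for Lipe, 11.6 for Plin4, 8.36 for Aqp7, 3.31 for Cidec, 2.76 for Mgll and 0.0927 for Plin5. From Plin3 down to Plin4 each pair of neighbours overlapped between libraries, as did Cidec and Mgll, and the other neighbours were apart. In irisin the means were 39.9 for Plin2, 23.6 for Plin3, 8.53 for Pnpla2, 4.09 for Plin1, 3.87 for Lipe, 3.79 for Plin4, 1.13 for Aqp7, 0.823 for Mgll, 0.453 for Cidec and 0.0251 for Plin5. There Plin1, Lipe and Plin4 overlapped in turn, and so did Aqp7, Mgll and Cidec, while Plin3 now stood clear of Pnpla2.

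In addition, 6 lists of other genes of droplet metabolism were read beside the members. All their medians lay nearer to 0, between -0.19 and 0.01 on the log2 scale, against -0.01 for all genes tested. The plot of fold changes by gene group shows most of their genes around 0, with a few far below it.

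**Figure D5:**
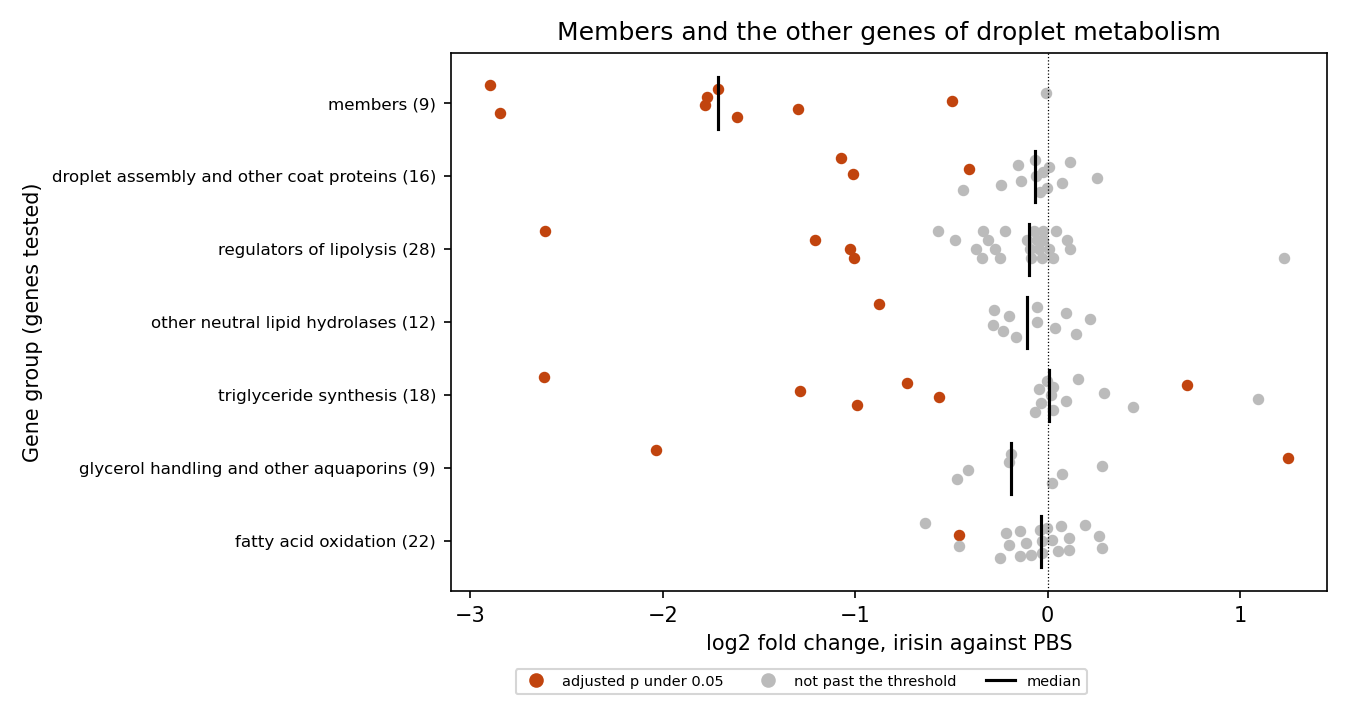
Log2 fold change of each tested gene for the members and for 6 lists of related genes, 1 dot per gene, orange where the adjusted p is under 0.05, with the median as a black line. The members' median is at -1.71, and the medians of the 6 lists lie between -0.19 and 0.01.

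Of 16 tested genes for droplet assembly and other coat proteins, 3 fell, 0 rose and 13 did not pass (4 lower and 0 higher at an unadjusted p under 0.05, and 0 higher with DESeq2 or limma-voom). All 3 encode parts of caveolae, the membrane pits that are dense in adipocytes. Cav1 fell 2.10-fold (688 ± 32.5 to 327 ± 31.2 CPM, adjusted p = 6.05e-06) and Cav2 2.01-fold (adjusted p = 0.000587). Cavin1 fell 1.33-fold (adjusted p = 0.0134), a call lost without PBS replicate 1, irisin replicate 2 or irisin replicate 3 (0.0548 to 0.107) and with the replicate block (0.0737). Fitm2, which helps triglyceride into new droplets, did not pass (log2 fold change -0.44 ± 0.13, adjusted p = 0.0712), but did without PBS replicate 3 (0.00114). Cidea, the relative of Cidec found in brown fat, had no count in any library.

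Regulators of lipolysis were lower in 4 of 28 tested genes and higher in 0, with 24 not past the threshold (7 lower and 1 higher at an unadjusted p under 0.05, and 0 higher with DESeq2 or limma-voom). G0s2, the protein that inhibits ATGL, fell along with its target. It had 419, 436 and 520 CPM in PBS and 198, 199 and 196 CPM in irisin, 2.31-fold lower (log2 fold change -1.21 ± 0.09, adjusted p = 3.11e-06). Abhd5, the activator of ATGL, was at 131 ± 11.4 and 109 ± 5.95 CPM and did not pass (log2 fold change -0.27 ± 0.10, adjusted p = 0.127), though it did with total counts alone (0.0474). Hilpda, another ATGL inhibitor, and Pnpla3, a droplet protein that binds ABHD5, did not pass either (log2 fold change -0.15 ± 0.13, adjusted p = 0.645, and -0.34 ± 0.26, adjusted p = 0.588).

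Receptors that switch lipolysis on or off made up the rest of these falls. Adrb3, the β3-adrenergic receptor of adipocytes, went from 31.6, 17.3 and 15.3 CPM to 2.40, 4.64 and 3.61 CPM (adjusted p = 0.000491). Antisense genes share 839 exon bases with Adrb3, 950 with Abhd5 and 559 with Npr1, and a gene on the same strand shares 105 with Pnpla3. Npr1, a natriuretic peptide receptor, fell 2.01-fold (adjusted p = 0.00141). Hcar1, a lactate receptor that restrains lipolysis, fell 2.04-fold (adjusted p = 0.0288). The call of Hcar1 was lost without PBS replicate 1, irisin replicate 2 or irisin replicate 3 (0.109 to 0.142), with DESeq2 (0.0620) and with the replicate block (0.0518).

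Among 12 tested genes for other neutral lipid hydrolases, Lpl alone was called (1 lower and 0 higher, also at an unadjusted p under 0.05, with DESeq2 and with limma-voom). Lipoprotein lipase, its product, works outside the cell and supplies fatty acids for storage. Lpl went from 3809 ± 191 to 2073 ± 104 CPM (log2 fold change -0.88 ± 0.08, adjusted p = 1.72e-05). Daglb, Pnpla6 and Pnpla8, the next by p, did not pass (adjusted p 0.464 to 0.525). Lipa, the lysosomal acid lipase, had 133 ± 24.1 and 136 ± 10.1 CPM (log2 fold change 0.04 ± 0.12, adjusted p = 0.934).

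For triglyceride synthesis, 5 of 18 tested genes fell and 1 rose (5 lower and 3 higher at an unadjusted p under 0.05). Gpat3, which adds the first fatty acid to glycerol phosphate, fell 6.15-fold (17.1 ± 1.01 to 2.76 ± 1.69 CPM, adjusted p = 0.000168). A gene on the other strand shares 1052 of its exon bases, and a gene on the same strand shares 259. Agpat2, for the next acylation, fell 2.44-fold (79.5 ± 5.26 to 32.5 ± 6.24 CPM, adjusted p = 3.78e-05). It shares 64 exon bases with a coding gene on the other strand. Lpin1, for the phosphatidate phosphatase, fell 1.66-fold (adjusted p = 0.00423), and Acsl1, which activates fatty acids, 1.99-fold (adjusted p = 0.000138). Dgat1, for the last step, fell 1.48-fold (adjusted p = 0.00984) and did not pass when PBS replicate 1 (0.0580) or irisin replicate 2 (0.0509) was left out. Acsl4, which prefers arachidonic acid, rose from 63.7 ± 7.15 to 106 ± 8.92 CPM (log2 fold change 0.73 ± 0.11, adjusted p = 0.000969). Soat2, a sterol acyltransferase at few reads, was at 2.39 ± 0.450 and 5.11 ± 1.90 CPM without overlap and did not pass (adjusted p = 0.0786, named after its values were seen). Enzymes of the same steps, Gpam, Gpat4 and Dgat2, did not pass (log2 fold changes -0.07, -0.04 and 0.16, named after their values were seen).

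Glycerol handling held 1 fall and 1 rise among 9 tested genes (2 lower and 2 higher at an unadjusted p under 0.05). Gpd1, which makes glycerol phosphate for new triglyceride, went from 24.0, 12.8 and 14.5 CPM to 1.92, 5.02 and 5.66 CPM and fell 4.11-fold (adjusted p = 0.00557, and 0.0510 with the replicate block), with 384 exon bases shared with an antisense gene. Gpd1 was lowest in irisin replicate 1, and without it and PBS replicate 3 its log2 fold change was -1.78 (adjusted p = 0.000120). Aqp1, a water channel, rose from 2.38 ± 1.13 to 5.74 ± 0.373 CPM (log2 fold change 1.25 ± 0.33, adjusted p = 0.0373), a call lost with DESeq2 (0.0754), with the block (0.0535) and without 5 of the 6 libraries in turn, PBS replicate 2 being the exception (0.0592 to 0.146). Gk, the glycerol kinase, and Pck2 did not pass (log2 fold changes -0.41 ± 0.17 and 0.28 ± 0.09, adjusted p = 0.203 and 0.0890). The aquaglyceroporin genes Aqp3 and Aqp9 had means of at most 0.117 CPM in either group, below the level that 3 counts give, and were not tested.

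Fatty acid oxidation genes held 1 fall and 0 rises among 22 tested (3 lower and 1 higher at an unadjusted p under 0.05, 0 higher with DESeq2 and 1 with limma-voom). The fall was Etfb, an electron carrier of the pathway (log2 fold change -0.46 ± 0.10, adjusted p = 0.0156). That call was lost without PBS replicate 1, irisin replicate 2 or irisin replicate 3 (0.0594 to 0.0817) and with the replicate block (0.0565). Pdk4, Acaa1a and Cpt2, the next by p, did not pass (log2 fold changes -0.64, 0.26 and -0.25). Pdk4 did pass without PBS replicate 3 (adjusted p = 0.00816), as did Acaa1a (0.0496).

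Markers of mature adipocytes moved with the members. Of 10 markers, none of them a member, 7 were tested, 6 fell and 1 rose, and their summed level was 1220 to 1846 CPM in PBS and 540 to 622 CPM in irisin. Lep, which encodes leptin and marks mature adipocytes, had no count in any library, nor had Cidea. Slc36a2, an amino acid transporter, is used as a surface marker of brown and beige adipocytes rather than of mature adipocytes in general. Slc36a2 went the other way, from 43.1 ± 6.55 to 158 ± 9.59 CPM (log2 fold change 1.87 ± 0.12, adjusted p = 4.21e-07). A part of a changed share of adipocyte-like cells in the members' falls was not tested. Smooth muscle and pericyte markers summed to 2281 to 2585 CPM in PBS and 1896 to 2166 CPM in irisin, most of it Acta2, which did not pass (2157 ± 123 to 1796 ± 122 CPM, adjusted p = 0.0976). Of the 8 of these markers tested, 3 fell with the members and 0 rose: Des 2.19-fold (adjusted p = 7.90e-05), Cspg4 3.09-fold (0.00324) and Abcc9 1.97-fold (0.0285). Their part in the members' falls was not tested. Mitochondrial genes took 0.846% to 0.916% of counts in every library.

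Genes with the most similar profile were sought among 8602 non-members with a mean of at least 10 CPM, by Pearson's r of log2 levels over the 6 libraries. For Aqp7 they were Cldn15 (r = 0.996), Pdlim1 (0.995) and Arpc2 (0.995). Cldn15 and Pdlim1 fell by less than Aqp7, 1.59-fold and 1.57-fold, and Arpc2 did not pass (log2 fold change -0.27 ± 0.08, adjusted p = 0.0512). For Plin2, the member with the highest level, they were Sulf2 (0.994), Pwwp2b (0.994) and Dnajb1 (0.991), with falls of 2.19-fold, 1.76-fold and 1.29-fold. With 6 points that share the group difference, such values describe these libraries only.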

How the data were processed

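Polyadenylated RNA of 6 libraries was compared, 3 PBS and 3 irisin, grouped by sample title. Per the labels' protocols, lysates of cells in a 96-well plate went through the Immunological Genome Project's RNA-seq procedure. Alignment with STAR 2.7.3a, counting with featureCounts and the build mm10 are named per the submitters' processing notes. For the annotation release and for strand and multi-mapping settings, the sources used here give nothing. The deposited values are raw counts, whole numbers for each gene symbol.

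From these counts, edgeR 4.0.16 in R 4.3.3 applied TMM factors, kept 12296 of 31436 genes with any count (filterByExpr, count minimum 10) and tested irisin minus PBS by quasi-likelihood with robust dispersion. Benjamini-Hochberg adjustment ran over all genes tested, with 0.05 as threshold. CPM are counts over the TMM-scaled sum of tested genes, CPM per kb divide by merged GENCODE M21 exon length, and standard errors are the log2 fold change over the root of F. The 95% interval uses that error. The filter keeps genes with few reads only where 3 libraries reach it, and for Cidec these were the PBS libraries alone. The steps were tested first on simulated data, in which 200 of 12131 genes were changed. Of 180 calls there, 20 were false, a larger share than the threshold of 0.05 aims at. Calls near the threshold may thus be false more often than 0.05 implies. Of the 2-fold changes 80% were recovered, and of the 1.5-fold changes 40%. A gene that did not pass may thus still have changed by such folds.

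The members and lists were chosen with earlier results of these data known. Beside the members, the text names in each of 6 lists the 4 tested genes of lowest p, all called genes of a direction with 5 or fewer, and 5 fixed partners (Abhd5, G0s2, Hilpda, Pnpla3, Adrb3). Others were named after their values were seen. Of 24 symbols for droplet assembly, 22 were in the table, and all others were found. Alternatives were other factors, DESeq2 1.42.0, limma-voom (limma 3.58.1), other filters, non-robust dispersion, an adjusted p of 0.10, the replicate block and leaving out libraries. Chi-square per degree of freedom was 2.59 to 13.4 within groups, so no library repeated another.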

Additional observations from a re-analysis of the deposited data

How the results depend on the processing

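Of the 9 tested members, Plin1, Plin2, Plin4, Lipe, Mgll and Aqp7 kept direction and call in 16 alternatives, and Cidec in the 15 that tested it (a count minimum of 50 left it out). The number of members called lower was 7 or 8 throughout and the number called higher was 0. Plin3, never called, had a log2 fold change of 0.013 without PBS replicate 1 and 0.0016 without irisin replicate 1, and ranged from -0.0195 to 0.013 when 1 library was left out. That of Pnpla3 was 0.026 without PBS replicate 1, and reached -0.591 without both PBS replicate 3 and irisin replicate 1. All genes called numbered 912, and 589 to 1290 without 1 library, with 605 without PBS replicate 1, 589 without irisin replicate 2 and 596 without irisin replicate 3. Without both PBS replicate 3 and irisin replicate 1, chosen after seeing the data, they were 1680. That fit gave 5 falls in droplet assembly and 7 among regulators of lipolysis, against 3 and 4, 2 rises in triglyceride synthesis against 1, and 2 falls and 1 rise in fatty acid oxidation against 1 and 0. Triglyceride synthesis also had 2 rises with no low-count filter, at an adjusted p of 0.10 and without irisin replicate 1. Regulators of lipolysis had 1 rise at 0.10 and without PBS replicate 3. Rises in glycerol handling, 1 with all libraries, were 0 with DESeq2, a count minimum of 50 or the block and without each library but PBS replicate 2, and 2 with limma-voom or at 0.10. Fatty acid oxidation falls were 2 and rises 1 with limma-voom or without PBS replicate 3, rises 1 at 0.10, and falls 0 with the block and without PBS replicate 1, irisin replicate 2 or irisin replicate 3. The cause of these shifts was not tested. With the replicate block 691 genes were called and 7 members were lower, Pnpla2 being lost (adjusted p = 0.101), and falls in glycerol handling were 0. Whether the numbers pair the samples is not stated. Same-numbered libraries had correlations of -0.26, 0.20 and -0.20 in their deviations from group means. Deviations from a mean of 3 libraries depend on each other, so these values cannot tell whether same-numbered samples share an origin. Depth limits Plin5, which could not be tested, and Cidec, at 3 to 8 counts per irisin library.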
